A study of Mus musculus with 9 samples.

Results

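Expression of 10 genes of the integrated stress response and of the brakes on mTOR was examined in primary mouse macrophages grown in culture, which are phagocytes of the immune system. The genes were Ddit4, Sesn2, Atf4, Ddit3, Atf3, Xbp1, Trib3, Asns, Chac1 and Ppp1r15a. They were chosen by symbol, and 11 of the 34866 Ensembl identifiers in the deposited tables mapped to the 10 symbols, because Ddit3 had 2 identifiers. The culture medium of all groups was alpha-MEM with serum and L929-conditioned medium, a fibroblast supernatant that feeds macrophages with growth factor. Cells of the standard oxygen group spent 7 days in standard oxygen. Acute hypoxia was 3 hours of 1% oxygen after culture in standard oxygen, and chronic hypoxia was 7 days of 1% oxygen. Each group held 3 samples, which the series' design calls biological replicates. The labels do not say whether these came from separate animals, and they give no strain, age or sex, so p-values measure the spread between these samples. Expression is given in TPM, a gene's share of the transcripts of a library, corrected for gene length and scaled to the same total in every library. TPM keeps no record of depth, so the depth behind a value is unknown.

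In the integrated stress response, kinases that sense misfolded protein, amino acid shortage, heme shortage or double-stranded RNA phosphorylate the translation factor eIF2. Bulk translation then falls while the mRNA of the transcription factor ATF4 is translated more, so Atf4 mRNA and ATF4 protein need not move together. ATF4 and its partners switch on genes for amino acid supply and for feedback, and Ddit4 and Sesn2 encode brakes on mTOR complex 1, the kinase that promotes protein synthesis. Ddit4 is also a long-known target of the hypoxia-inducible factors.

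The upstream stretches of 5 of the genes are shown because they hold matches to letters that these pathways are known to bind. The 250 bases before each RefSeq gene start (GRCm38.p6) were searched on both strands for ACGTG, a core of the hypoxia response element, for TGATGNAA, a form of the element bound by ATF4 with C/EBP partners, and for TGACGTCA, the full cyclic AMP response element. ACGTG occurred in 16.6% of 32851 promoter windows of the same length, TGATGNAA in 3.45% and TGACGTCA in 1.55%. Capitals mark the matches in the stretches below, which read 5′ to 3′ on the strand of the gene. Each stretch stops where it meets an annotated exon of its gene, except that of Asns, which is limited to 30 bases around a match that lies in an exon by GENCODE M21. The stretch of Atf3 lies within the longer GENCODE gene, upstream of an internal start that RefSeq uses. In Ddit4, ACGTG lay 187 to 183 bases before the RefSeq start (chr10:59951835-59952020, minus strand).
Ddit4: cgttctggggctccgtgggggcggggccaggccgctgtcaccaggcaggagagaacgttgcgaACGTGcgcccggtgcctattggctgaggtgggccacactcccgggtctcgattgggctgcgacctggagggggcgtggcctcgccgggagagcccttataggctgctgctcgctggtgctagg
In Ppp1r15a, ACGTG occurred at 201 to 197 and at 160 to 156 bases before the start, and TGACGTCA at 12 to 5 bases before it (chr7:45526269-45526518, minus strand).
Ppp1r15a: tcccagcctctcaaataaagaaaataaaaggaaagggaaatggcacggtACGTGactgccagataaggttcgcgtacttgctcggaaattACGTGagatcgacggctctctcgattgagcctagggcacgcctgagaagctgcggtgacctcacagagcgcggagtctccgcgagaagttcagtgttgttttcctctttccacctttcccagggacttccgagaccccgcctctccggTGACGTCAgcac
In Atf3, the reverse complement of TGATGNAA lay 110 to 103 bases before the start (chr1:191183341-191183583, minus strand).
Atf3: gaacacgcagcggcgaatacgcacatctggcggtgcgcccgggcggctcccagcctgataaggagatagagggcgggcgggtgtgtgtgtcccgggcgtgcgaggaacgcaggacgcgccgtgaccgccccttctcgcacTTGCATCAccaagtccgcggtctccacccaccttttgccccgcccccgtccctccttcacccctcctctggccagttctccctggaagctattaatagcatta
In Chac1, the same reverse complement lay 193 to 186 bases before the start (chr2:119350992-119351228, plus strand).
Chac1: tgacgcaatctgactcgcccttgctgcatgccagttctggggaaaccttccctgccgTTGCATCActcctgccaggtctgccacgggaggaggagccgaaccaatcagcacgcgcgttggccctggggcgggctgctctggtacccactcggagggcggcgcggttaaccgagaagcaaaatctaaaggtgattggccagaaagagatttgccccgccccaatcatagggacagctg
In Asns, TGATGAAA lay 23 to 16 bases before the RefSeq start (chr6:7693214-7693243, minus strand), and ACGTG was also matched on the reverse strand at 110 to 106 bases, outside the printed stretch.
Asns: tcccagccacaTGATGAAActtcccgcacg
None of the 3 motifs was matched in the windows of Sesn2, Atf4, Ddit3, Trib3 and Xbp1. Other forms of these elements were not searched, so a window without a match is not shown to lack them. A match describes letters in a window and no binding was measured.

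The number of genes at or above 1 TPM ranged from 10724 to 11208 per library. All 10 macrophage markers had a mean of at least 1 TPM in every group, and their summed level ranged from 62700 to 71000 TPM in standard oxygen, from 56900 to 75000 in acute hypoxia and from 62100 to 68200 in chronic hypoxia. Of the 7 fibroblast markers 1 had a mean of at least 1 TPM, their summed level was at most 2.09 TPM, and the collagen gene Col1a1 was at most 0.0619 TPM. The neutrophil and granulocyte precursor list was carried by S100a8, a gene that myeloid cells share, and the other 7 markers summed to between 1.99 and 4.85 TPM. The summed level of all 8, S100a8 included, was 899 to 1600 TPM in standard oxygen, at 941 to 1910 in acute hypoxia and 260 to 585 in chronic hypoxia, and its part in the results was not tested. Dendritic cell markers summed to at most 0.659 TPM, lymphocyte markers to at most 1.5 TPM, and mast cell and basophil markers to at most 0.766 TPM. Samples of different groups share digits in their descriptions, here called sample codes X, Y and Z, whose meaning is not stated. Code Z was carried by standard replicate 2, acute replicate 3 and chronic replicate 3, and these 3 libraries stood apart on the first principal component, which held 36.9% of the variance. Of the 10 macrophage markers, 7 overlapped between the libraries of code Z and the others, Mertk and Mrc1 were lower in code Z, and Spi1 was higher. Mertk was at 2.206 to 3.367 TPM in code Z and at 21.81 to 33.29 TPM in the others, and Spi1 at 246.1 to 285.7 TPM and at 191.5 to 234.5 TPM. Libraries of the same code deviated together, so each result is given without a block and, where the call differs, with the sample code as a block, that is, compared within codes. Ratios within sample codes are given below in the order X, Y, Z. The TPM of single libraries is given in the order of replicates 1, 2 and 3. These are codes X, Z and Y in standard oxygen, and X, Y and Z in both hypoxic groups.

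Ddit4 was the gene with the largest change among the 9 tested in both comparisons with standard oxygen, higher after 3 hours and again, to a lesser degree, after 7 days. Sesn2 and Xbp1 were higher and Atf3 and Ppp1r15a lower after 7 days, each within sample codes. Atf4, Ddit3, Asns and Trib3 did not pass the test in any comparison, with the sample code block or without it, and Chac1 was too low to be tested. Without a block and with the 6 samples of each comparison, limma with Benjamini-Hochberg adjustment over all genes called none of the 9 tested genes. An unadjusted p under 0.05 was found for 3 of 9 in acute hypoxia against standard oxygen, beside 7.14% of all genes. It was found for 5 of 9 in chronic hypoxia against standard oxygen, beside 22.9% of all genes, and for 4 of 9 in chronic against acute hypoxia, beside 20.8%. The share of all genes called without a block was 0.0273%, 2.69% and 0.695% in these comparisons.

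**Figure D1:**
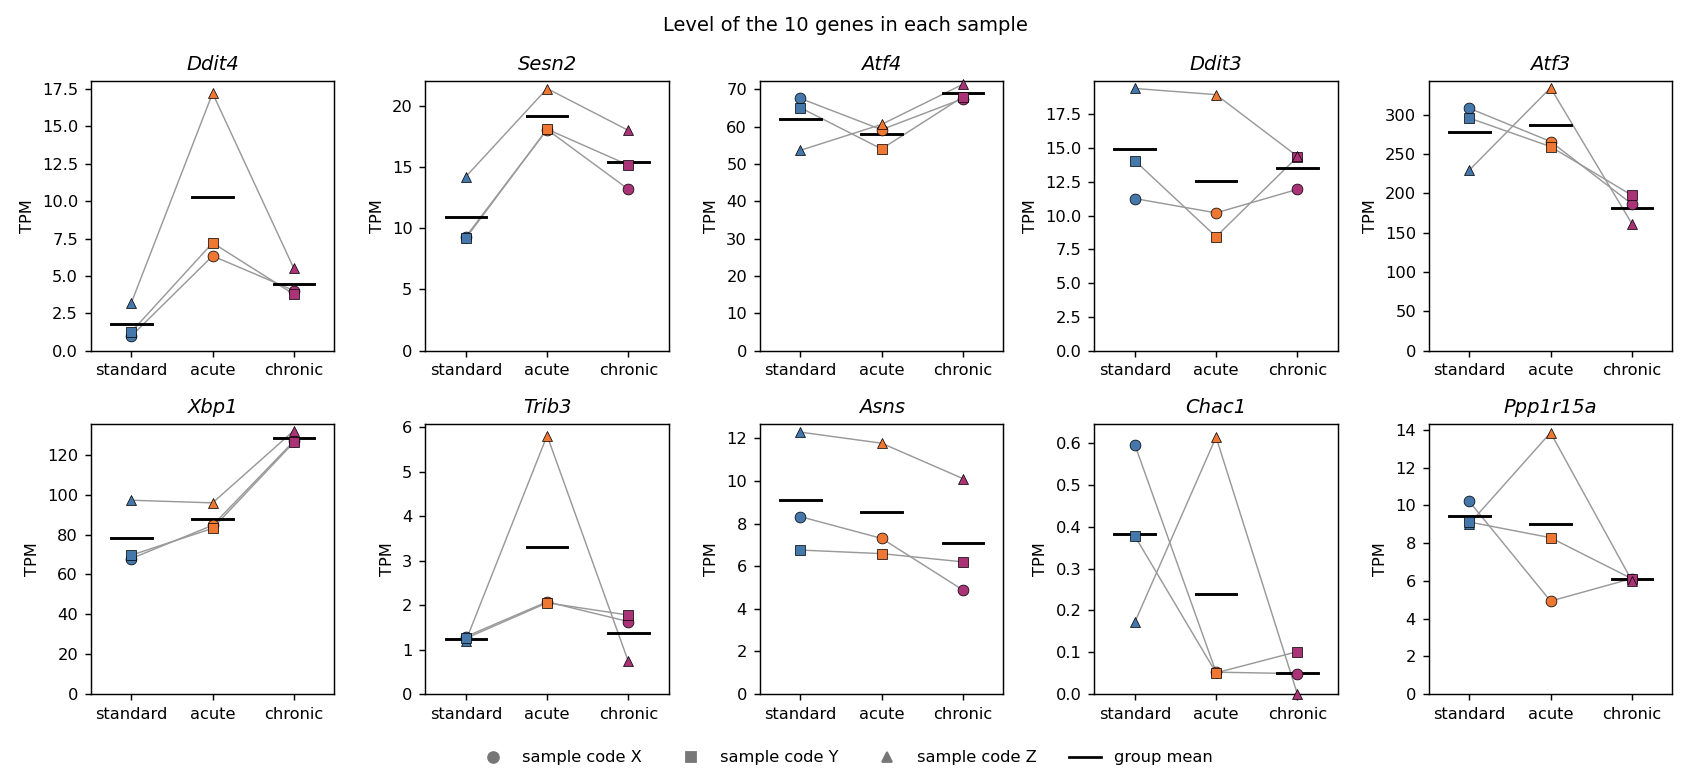
TPM of the 10 genes in each of the 9 libraries, by group (standard oxygen, acute hypoxia, chronic hypoxia), with 1 panel per gene; points are libraries, with a symbol for each sample code, grey lines join libraries of the same code and black bars are group means (n = 3). Ddit4, Sesn2 and Trib3 were higher in all 3 acute libraries than in the standard ones, Ddit4 and Xbp1 were higher and Atf3, Ppp1r15a and Chac1 lower in all 3 chronic libraries than in the standard ones, and acute replicate 3 (code Z) was the highest acute library in each of the 10 panels.

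With the sample code as a block, 1 of 9 genes was called in acute hypoxia against standard oxygen, against 0.71% of all genes tested (0.655% higher and 0.0546% lower). After rescaling the same gene, Ddit4, was called, beside 0.446% of all genes higher and 0.0455% lower. In chronic hypoxia against standard oxygen, 5 of 9 were called, 3 higher and 2 lower, against 18.4% of all genes (15.1% higher and 3.3% lower). In chronic against acute hypoxia, 3 of 9 were called, 1 higher and 2 lower, against 15.5% of all genes (12.1% higher and 3.42% lower). The comparisons with standard oxygen share the standard samples and are therefore not independent. The median log2 change of the 9 genes was 0.05 in acute hypoxia and 0.05 in chronic hypoxia against standard oxygen, beside 0.01 and 0.16 over all genes. In chronic against acute hypoxia it was -0.30, beside 0.14 over all genes. Because the median of all genes lay 0.16 and 0.14 above 0 in the comparisons with chronic hypoxia, the changes were also computed after median-of-ratios rescaling, which brought that median to about 0. With this rescaling and the sample code block, 3 of 9 were called in chronic hypoxia against standard oxygen (1 higher, 2 lower), where 5.53% of all genes were higher and 5.92% lower. Ddit4 and Sesn2 lost their calls there and kept their direction. In chronic against acute hypoxia, 4 of 9 were called after rescaling (1 higher, 3 lower), where 4.73% of all genes were higher and 5.07% lower.

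In standard oxygen the levels of the 10 genes, which TPM makes comparable between genes of different length, spanned from Atf3 at 277.7 TPM to Chac1 at 0.382 TPM. Atf3 was followed by Xbp1 at 78.3 TPM and Atf4 at 62.1 TPM, and the libraries of these neighbours did not overlap. Ddit3 followed at 14.9 TPM, Sesn2 at 10.9 TPM, Ppp1r15a at 9.45 TPM and Asns at 9.12 TPM, and each neighbour in that run overlapped the next. Ddit4 at 1.82 TPM and Trib3 at 1.25 TPM also overlapped, and both were above Chac1. In acute hypoxia Ddit4, at 10.3 TPM, overlapped Asns, Ppp1r15a and Ddit3.

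Ddit4 (ENSMUSG00000020108, GRCm38 chr10:59949669-59951834, minus strand) encodes REDD1, which restrains mTOR complex 1 through the tuberous sclerosis complex. In standard oxygen it was at 0.982, 3.2 and 1.26 TPM in replicates 1, 2 and 3 (1.82 ± 1.21, mean ± SD, n = 3). In acute hypoxia it was at 6.34, 7.21 and 17.2 TPM (10.3 ± 6.04). In chronic hypoxia it was at 4.03, 3.78 and 5.50 TPM (4.43 ± 0.931). All libraries of both hypoxic groups were above all standard libraries, and all chronic libraries were below all acute ones. Since these are bulk samples, a higher share of cells with the transcript and more transcript per cell cannot be told apart. The ratio of acute to standard TPM was 6.46, 5.72 and 5.38 within codes X, Y and Z, although the acute library of code Z was above the other 2. The log2 change on the log2(TPM + 1) scale was 1.96 (SE 0.433, adjusted p = 0.259 without a block and 0.0117 with the sample code block, limma). For 7 days of hypoxia the ratio to standard was 4.1, 2.99 and 1.72 within the codes. Its log2 change was 1.02 (SE 0.32, adjusted p = 0.133 without a block and 0.0302 with the sample code block, limma). After rescaling the change was 0.89 (adjusted p = 0.0549 with the block, limma). The fall from acute to chronic was by 0.94 on the log2 scale (SE 0.357, adjusted p = 0.213 without a block and 0.041 with the sample code block, limma), and the chronic level was 0.635, 0.524 and 0.319 of the acute one within codes X, Y and Z. Thus the level of Ddit4 was highest at 3 hours, intermediate at 7 days and lowest in standard oxygen within every code.

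Sesn2 (ENSMUSG00000028893, chr4:132492032-132510501, minus strand) encodes Sestrin 2, a leucine sensor that holds back mTOR complex 1. It was at 9.31, 14.2 and 9.19 TPM in standard oxygen (10.9 ± 2.86), at 18.1, 18.1 and 21.4 TPM in acute hypoxia (19.2 ± 1.93), and at 13.2, 15.2 and 17.99 TPM in chronic hypoxia (15.4 ± 2.42). The acute libraries were all above the standard ones, and the chronic libraries overlapped the standard ones only through standard replicate 2, of code Z. The acute to standard ratio was 1.94, 1.97 and 1.51 within the codes. The log2 change at 3 hours was 0.78 (SE 0.183, adjusted p = 0.275 without a block and 0.0735 with the sample code block, limma), which missed the threshold. It passed when all 9 samples entered the blocked fit (adjusted p = 0.0148, limma), and without the 3 libraries of code Z (0.90, adjusted p = 0.0172). At 7 days the ratio was 1.41, 1.65 and 1.27 within codes, and Sesn2 rose by 0.48 (SE 0.201, adjusted p = 0.218 without a block and 0.0395 with the sample code block, limma), a call that rescaling ended (0.31, adjusted p = 0.115). All chronic libraries were below all acute ones, by a log2 change of -0.30 (SE 0.144, adjusted p = 0.288 without a block and 0.0812 with it), which passed with the block after rescaling (-0.45, adjusted p = 0.0412). Both mTOR brakes were thus higher in hypoxia within all 3 codes at both times.

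Atf4 (ENSMUSG00000042406, chr15:80255184-80257541, plus strand), the transcription factor at the centre of the response, was at 67.6, 53.7 and 65.1 TPM in standard oxygen (62.1 ± 7.42), at 59.2, 54.0 and 60.6 TPM in acute hypoxia (57.9 ± 3.46) and 67.5, 68.0 and 71.3 TPM in chronic hypoxia (68.9 ± 2.10). The standard and hypoxic libraries overlapped. Its log2 change was -0.09 in acute hypoxia (SE 0.116, adjusted p = 1, limma) and 0.15 in chronic hypoxia (SE 0.115, adjusted p = 0.465), and the latter was -0.02 after rescaling. The chronic libraries were above all acute ones, by 0.25 on the log2 scale (SE 0.092), without passing the test (adjusted p = 0.204, and 0.0738 with the sample code block, limma).

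Ddit3 (ENSMUSG00000025408, chr10:127290774-127296288, plus strand) encodes CHOP, a factor of prolonged stress. It was at 11.3, 19.4 and 14.1 TPM in standard oxygen (14.9 ± 4.14), at 10.2, 8.44 and 18.95 TPM in acute hypoxia (12.5 ± 5.63) and 11.9, 14.3 and 14.4 TPM in chronic hypoxia (13.6 ± 1.40). The 3 groups overlapped, and the libraries of code Z were the highest in each group. The log2 change was -0.28 in acute hypoxia (SE 0.318, adjusted p = 1, limma), with a lower level in 3 of 3 codes, and -0.10 in chronic hypoxia (SE 0.202, adjusted p = 0.8). The second identifier, ENSMUSG00000116429, was listed at 1.75 TPM in standard replicate 1 and at 0 in the 8 other samples, and was kept apart. Of the exonic bases of the first, 10.1% are overlapped by the second on the same strand and by Mars on the opposite strand. Strand-specific counting is not stated in the sources used here, so the level of Ddit3 is uncertain, by an amount that the share of bases does not give.

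Atf3 (ENSMUSG00000026628, chr1:191170296-191218039, minus strand), a stress-induced factor that also dampens inflammatory genes in macrophages, was the most abundant of the 10. It was at 308.0, 229.4 and 295.6 TPM in standard oxygen (277.7 ± 42.2), at 265.8, 259.3 and 334.0 TPM in acute hypoxia (286.4 ± 41.4), and at 186.4, 197.5 and 161.5 TPM in chronic hypoxia (181.8 ± 18.4). The chronic libraries were below all others, while the acute and standard libraries overlapped. The chronic level was 0.605, 0.668 and 0.704 of the standard one within the codes. Atf3 fell by 0.60 on the log2 scale against standard oxygen (SE 0.147, adjusted p = 0.086 without a block and 0.0142 with the sample code block, limma) and by 0.65 against acute hypoxia (SE 0.139, adjusted p = 0.0822 and 0.0389). Against standard oxygen its log2 change at 3 hours was 0.05 (SE 0.156, adjusted p = 1), with a sign that turned to -0.20 without the libraries of code Z.

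Xbp1 (ENSMUSG00000020484, chr11:5520659-5525893, plus strand) encodes the factor activated when the sensor IRE1 splices its mRNA, and the gene-level TPM does not separate the spliced form. It was at 68.0, 97.3 and 69.7 TPM in standard oxygen (78.3 ± 16.4), at 84.6, 83.1 and 95.9 TPM in acute hypoxia (87.9 ± 6.99) and 126.9, 126.3 and 132.2 TPM in chronic hypoxia (128.5 ± 3.26). The chronic libraries were above all others and close to one another. The ratio to standard was 1.87, 1.81 and 1.36 within the codes, the smallest in code Z, whose standard library was the highest of its group. Xbp1 rose by 0.73 on the log2 scale at 7 days (SE 0.152, adjusted p = 0.0633 without a block and 0.0213 with the sample code block, limma), and was 0.54 above acute hypoxia (SE 0.0961, adjusted p = 0.0621 and 0.0141). At 3 hours the log2 change was 0.18 (SE 0.157, adjusted p = 0.978).

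Ppp1r15a (ENSMUSG00000040435, chr7:45522916-45526268, minus strand) encodes GADD34, the phosphatase subunit that removes phosphate from eIF2 and so closes the response. It was at 10.2, 9.02 and 9.12 TPM in standard oxygen (9.45 ± 0.663), at 4.92, 8.29 and 13.9 TPM in acute hypoxia (9.02 ± 4.51), and at 6.12, 6.11 and 6.01 TPM in chronic hypoxia (6.08 ± 0.0602). The acute libraries lay both below and above the standard range, and the 3 chronic libraries were nearly equal and below all standard ones. The chronic level was 0.599, 0.67 and 0.667 of the standard one within codes. Ppp1r15a fell by 0.56 on the log2 scale (SE 0.117, adjusted p = 0.0633 without a block and 0.0268 with the sample code block, limma), but not with all 9 samples in the blocked fit (adjusted p = 0.159). At 3 hours its log2 change was -0.16 (SE 0.318, adjusted p = 1), and the differences within codes ranged from -0.92 to 0.57.

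Trib3 (ENSMUSG00000032715, chr2:152337422-152344032, minus strand), a pseudokinase that restrains AKT and ATF4, was at 1.29, 1.20 and 1.25 TPM in standard oxygen (1.25 ± 0.0475), at 2.07, 2.05 and 5.82 TPM in acute hypoxia (3.32 ± 2.17), and 1.63, 1.78 and 0.731 TPM in chronic hypoxia (1.38 ± 0.566). The acute libraries were above all standard and all chronic ones, and the ratio to standard was 1.61, 1.64 and 4.87 within the codes. The change of 0.83 on the log2 scale (SE 0.341) did not pass the test (adjusted p = 0.681 without a block and 0.324 with the sample code block, limma). Without acute replicate 3, of code Z, the change was 0.45. At 7 days the log2 change was 0.05 (SE 0.256, adjusted p = 0.924), or -0.04 after rescaling.

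Asns (ENSMUSG00000029752, chr6:7675169-7693254, minus strand), which encodes asparagine synthetase, was at 8.32, 12.3 and 6.75 TPM in standard oxygen (9.12 ± 2.85), at 7.30, 6.59 and 11.8 TPM in acute hypoxia (8.55 ± 2.81) and 4.88, 6.20 and 10.1 TPM in chronic hypoxia (7.06 ± 2.72). The libraries of code Z were the highest in each group and the groups overlapped. Its log2 change was -0.09 at 3 hours (SE 0.273, adjusted p = 1, limma) and -0.34 at 7 days (SE 0.297, adjusted p = 0.532), the latter lower in 3 of 3 codes with an adjusted p of 0.15 under the sample code block. Chac1 (ENSMUSG00000027313, chr2:119351229-119354381, plus strand), which encodes a glutathione-degrading enzyme, stayed below the mean of 1 TPM required for testing. It was listed at 0.597, 0.172 and 0.378 TPM in standard oxygen, at 0.0521, 0.0505 and 0.615 TPM in acute hypoxia and 0.0485, 0.101 and 0 TPM in chronic hypoxia. The acute libraries overlapped both other groups, and all chronic libraries were below all standard ones.

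**Figure D2:**
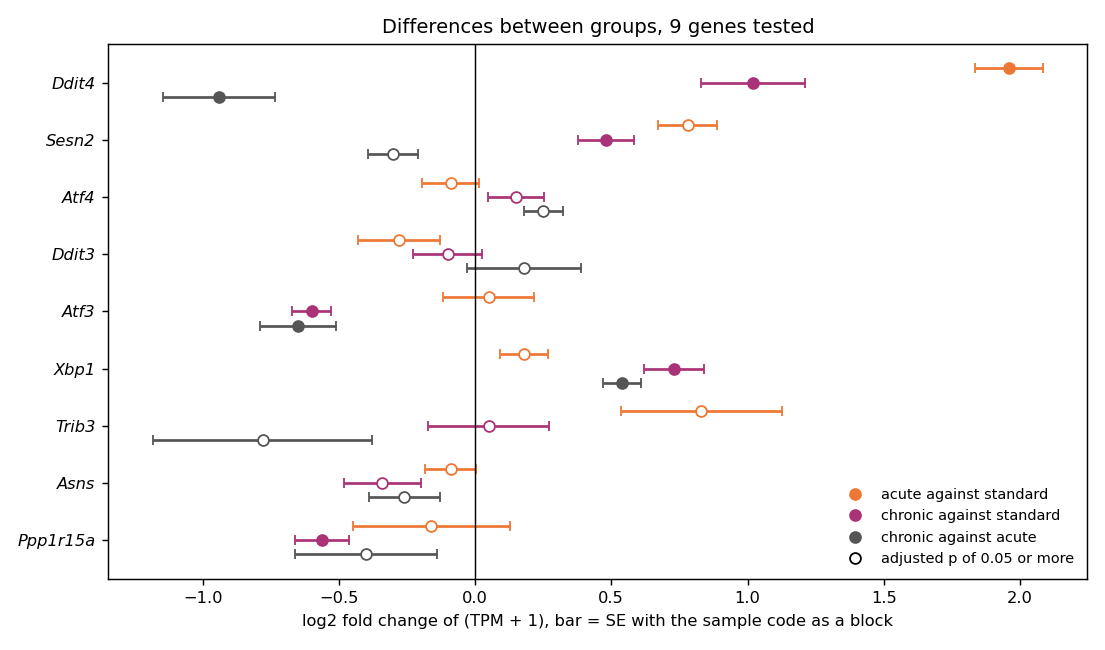
Log2 change, on the log2(TPM + 1) scale, of the 9 tested genes in each of the 3 comparisons; points are the fitted changes, bars the SE with the sample code block, and filled points have an adjusted p under 0.05 in that fit. Ddit4 is filled in all 3 comparisons, at 1.96, 1.02 and -0.94, and Atf3 and Xbp1 are filled in both comparisons with chronic hypoxia.

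The library of code Z had a particular place among the acute values. In acute hypoxia the library of code Z had the highest TPM of its group for 10 of the 10 genes, whereas this held for 55.4% of 11065 genes with a mean of at least 1 TPM. The 10 include Chac1, which was below that mean and so is not among the 11065. In standard oxygen the library of code Z was the highest for 5 of the 10 genes and the lowest for the other 5, beside 57.8% and 25.2% of all genes. In chronic hypoxia it was the highest for 6 and the lowest for 4, beside 54.7% and 28.6%. This count was chosen after the values had been seen, and what sets the code apart was not tested. Non-overlapping groups were found for 3 of 9 genes in acute hypoxia against standard oxygen, all higher beside 7.63% of all genes higher and 4.85% lower (12.5% in all). In chronic hypoxia against standard oxygen, 2 were higher and 2 lower, beside 24.2% and 5.39% of all genes (29.6% in all). In chronic against acute hypoxia, 2 were higher and 4 lower, beside 22.3% and 5.5% of all genes (27.8% in all).

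Other genes of the same pathways were taken from lists of the response's parts. The highest and lowest genes named below are among those averaging at least 5 TPM. Of 16 kinases, phosphatases and eIF2B subunits that set the phosphorylation of eIF2, none was called against standard oxygen at either time, with or without the block. Of all genes, 0.71% were called at 3 hours and 18.4% at 7 days with the block. Without it these shares were 0.0273% and 2.69%. An unadjusted p under 0.05 (limma) was found for 3 at 7 days, beside 22.9% of all genes, and for 0 at 3 hours, beside 7.14%. After rescaling with the block 1 was lower at 7 days, Eif2b1 (-0.41, adjusted p = 0.0411), beside 5.92% of all genes. Their extremes at 7 days were Eif2ak3, which encodes the kinase PERK, at 0.43 and Eif2b2 at -0.35 on the log2 scale. The median of the list was 0.02 at 3 hours and -0.01 at 7 days.

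Among 13 partners of ATF4 and stress factors tested at 3 hours, none was called, beside 0.71% of all genes called with the block. Of these 13, 5 had an unadjusted p under 0.05 (limma), beside 7.14% of all genes. At 7 days 14 were tested, and 3 were higher and 3 lower with the sample code block, beside 15.1% and 3.3% of all genes, or 2 and 3 after rescaling, beside 5.53% and 5.92%. Gdf15, a secreted stress cytokine, fell by 2.19 on the log2 scale (adjusted p = 0.103 without a block and 0.00605 with it), from 15.0 ± 7.69 TPM to 2.56 ± 1.81 TPM (SD, n = 3). Its log2 change at 3 hours was -1.58, and it was lower in 3 of 3 codes at both times, but missed the threshold at 3 hours (adjusted p = 0.291 with the block). Nfil3, a basic leucine zipper factor, rose by 1.67 at 7 days with the block (adjusted p = 0.0191), and was at 1.59 at 3 hours (adjusted p = 0.0714). Called without a block at 7 days were Stc2, a secreted glycoprotein gene of the stress response, at 2.39 (adjusted p = 0.0101), and Cebpa, a myeloid differentiation factor, at -0.65 (adjusted p = 0.0391).

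Of 14 genes for amino acid synthesis and transport, Mthfd1l alone was called at 3 hours, with the block. It was higher, beside 0.655% of all genes higher and 0.0546% lower. Mthfd1l, a mitochondrial one-carbon enzyme, was at 8.81 ± 0.0662 TPM in standard oxygen, at 19.4 ± 2.55 TPM at 3 hours and 23.8 ± 3.58 TPM at 7 days (SD, n = 3), and rose by 1.05 and 1.33 on the log2 scale (adjusted p = 0.0379 with the block at 3 hours and 0.0101 without a block at 7 days, limma). At 7 days 4 of the 14 were higher and 1 lower with the block, beside 15.1% and 3.3% of all genes. Slc38a2, a neutral amino acid transporter, rose by 0.83 (adjusted p = 0.034 without a block). The lower gene was Slc7a11, the cystine transporter subunit, at 10.5, 29.6 and 10.6 TPM in standard oxygen and 0.986, 1.32 and 4.15 TPM in chronic hypoxia. It fell by 2.48 on the log2 scale (adjusted p = 0.0604 without a block and 0.00465 with it). In acute hypoxia Slc7a11 was at 11.4, 11.7 and 54.6 TPM. The library of code Z was the highest of each group, at 29.6 TPM in standard oxygen, 54.6 TPM in acute hypoxia and 4.15 TPM in chronic hypoxia. Of 21 cytosolic aminoacyl-tRNA synthetases none was called at 3 hours, beside 0.71% of all genes called with the block. Of these 21, 2 had an unadjusted p under 0.05 (limma), beside 7.14% of all genes. At 7 days 4 of the 21 were higher with the block, beside 15.1% of all genes, and 0 after rescaling, beside 5.53%. Vars was the highest of them, at 0.47 (adjusted p = 0.0287 with the block, limma). After rescaling it was at 0.3 (adjusted p = 0.102 with the block, limma).

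**Figure D3:**
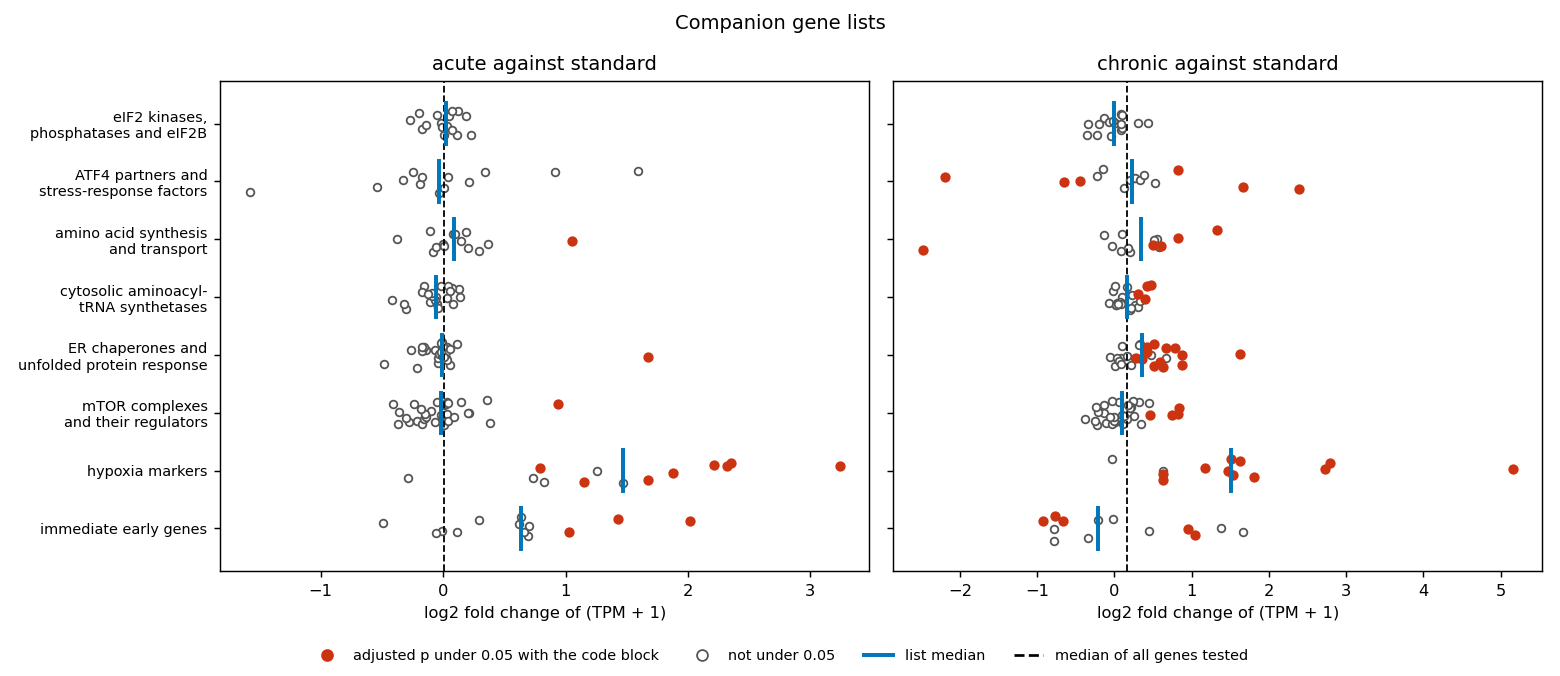
Log2 change of each tested gene of the companion lists in acute and in chronic hypoxia against standard oxygen; red filled points have an adjusted p under 0.05 with the sample code block, blue marks are list medians and the dashed line is the median of all genes (0.01 and 0.16). The hypoxia markers have medians of 1.47 and 1.51, while the medians of the tRNA synthetases are -0.06 and 0.16.

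The next list was of the endoplasmic reticulum. Of 27 chaperone and unfolded protein response genes, 13 were higher and 0 lower at 7 days with the sample code block, beside 15.1% and 3.3% of all genes, and 6 higher and 0 lower after rescaling, beside 5.53% and 5.92%. At 7 days Edem1 was the lowest, at -0.05, and was not called. The list median was 0.36, beside 0.16 over all genes. Against acute hypoxia 15 of 27 were higher and 0 lower with the block, beside 12.1% and 3.42% of all genes. After rescaling these were 7 and 0, beside 4.73% and 5.07%. Pdia4, a disulfide isomerase of the endoplasmic reticulum, was at 25.5 ± 1.05 TPM in standard oxygen, at 22.8 ± 2.22 TPM at 3 hours and 47.6 ± 5.69 TPM at 7 days (SD, n = 3). It rose by 0.87 at 7 days (adjusted p = 0.0272 without a block, limma). At 3 hours 1 of the 27 was higher and 0 lower with the block, beside 0.655% and 0.0546% of all genes. The gene was Ero1l, an oxidase of the endoplasmic reticulum that is also a known hypoxia target and is counted in the hypoxia marker list too. It was at 75.9 ± 10.9 TPM in standard oxygen, at 256.3 ± 109.5 TPM at 3 hours and 236.3 ± 17.3 TPM at 7 days, and rose by 1.67 (adjusted p = 0.0299 with the block) and 1.63 (adjusted p = 0.0077 without a block). Herpud1, the lowest of the list at 3 hours, was at -0.48 (adjusted p = 0.287 with the block).

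Of 31 genes for mTOR complexes and their regulators, 1 was higher and 0 lower at 3 hours with the sample code block. Of all genes 0.655% were higher and 0.0546% lower. After rescaling 0 were called, beside 0.446% of all genes higher and 0.0455% lower. The gene called with the block was Eif4ebp1, the translation repressor that mTOR complex 1 inactivates, at 0.94 (adjusted p = 0.0379, limma). After rescaling Eif4ebp1 was at 0.92 (adjusted p = 0.0519, limma). It was at 40.3 ± 2.33 TPM in standard oxygen, at 78.9 ± 14.8 TPM at 3 hours and 71.8 ± 1.68 TPM at 7 days (SD, n = 3). At 7 days it rose by 0.82 (adjusted p = 0.0146 without a block, limma), and 4 of the 31 were higher and 0 lower with the block, beside 15.1% and 3.3% of all genes, or 3 and 3 after rescaling, beside 5.53% and 5.92%. Sesn1, a relative of Sesn2, was the highest at 7 days, at 0.84 (adjusted p = 0.131 without a block and 0.0249 with it), whereas at 3 hours it was at -0.24 (adjusted p = 0.621 with the block). Flcn was the lowest at 3 hours, at -0.41, and was not called. Fnip1 was the lowest at 7 days, at -0.25 (adjusted p = 0.0699 with the block), and was called lower with the block after rescaling (-0.42, adjusted p = 0.0306).

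For scale, 8 of 13 hypoxia markers were higher and 0 lower at 3 hours with the sample code block, beside 0.655% and 0.0546% of all genes, and 11 and 0 at 7 days, beside 15.1% and 3.3%. The largest change of a marker was that of Egln3, an oxygen-sensing prolyl hydroxylase, at 3.24 and 5.16 on the log2 scale (adjusted p = 0.00814 with the block, and 0.0077 without a block, limma). Car9 was the lowest marker at both times, at -0.29 and -0.03 (adjusted p = 0.462 and 0.911 with the block, limma). Hilpda, a lipid droplet protein gene, followed the order of Ddit4, with the highest level at 3 hours. It was at 82.5 ± 2.72 TPM in standard oxygen, at 429.6 ± 77.5 TPM at 3 hours and 127.9 ± 7.06 TPM at 7 days (SD, n = 3). Of 13 immediate early genes 3 were higher and 0 lower at 3 hours with the block, beside 0.655% and 0.0546% of all genes. At 7 days 2 were higher and 3 lower, beside 15.1% and 3.3% of all genes, or 0 and 4 after rescaling, beside 5.53% and 5.92%. Ier3 was the highest of them at 3 hours, at 2.02 (adjusted p = 0.0175 with the block), and Fos the lowest at 7 days, at -0.92 (adjusted p = 0.0251 with the block).

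The genes whose profile over the 9 samples was most like those of Ddit4, Ddit3 and Trib3 were ranked by the root mean square gap between log2(TPM + 1) values centred on each gene's mean, over 7107 genes with a mean of at least 10 TPM. The samples share codes and groups, so the ranks are a description. Nearest to Ddit4, whose own values departed from their mean by 0.915 (root mean square), were Spata13 (gap 0.275), Scd2 (0.294) and Slc2a1 (0.326), the last a glucose transporter gene in the hypoxia marker list. Nearest to Ddit3, which moved by 0.345, were Mlkl (0.142), Tor3a (0.145) and Golgb1 (0.147). Nearest to Trib3, which moved by 0.524, were Tiparp (0.231), Rusc2 (0.332) and Ppard (0.338).

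**Figure D4:**
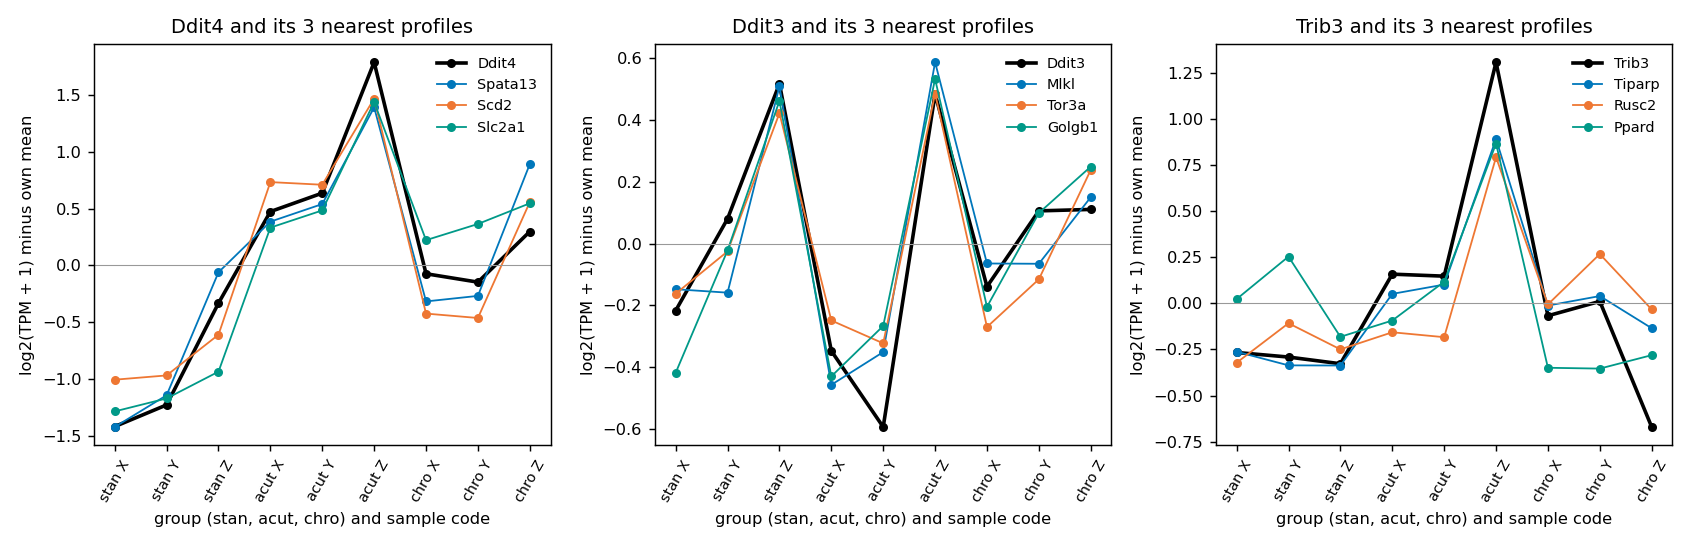
Centred log2(TPM + 1) profiles of Ddit4, Ddit3 and Trib3 over the 9 samples, ordered by group and sample code, each with the 3 genes of the smallest root mean square gap. The Ddit4 profile and its neighbours are lowest in the standard libraries of codes X and Y and highest in acute replicate 3, and the Trib3 profile peaks in that library.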

How the data were processed

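The values are TPM as the authors deposited them, in 1 table for each pair of groups (3 tables), and samples found in 2 tables held the same values. The submitters' processing notes name FastQC, STAR, featureCounts and GRCm38, and how TPM was made from the counts is not given in the sources used here. Each comparison was fitted with limma 3.58.1 in R 4.3.3 (lmFit, eBayes with trend, two-sided) on log2(TPM + 1), which understates changes of low genes, in the 6 samples of its 2 groups. A mean TPM of at least 1 was required for testing. Benjamini-Hochberg adjustment ran over all tested genes, and an adjusted p under 0.05 made a call. The scripts were tested on simulated data.

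Pairing was checked by correlating deviations from group means between samples of the same sample code. Mean r was 0.437 (0.378 to 0.539) for acute and standard samples and 0.448 (0.389 to 0.535) for chronic and standard samples. It was 0.54 (0.399 to 0.633) for chronic and acute samples. Samples of code X were not compared with samples of code Y in this check, and both codes lay opposite code Z on the first principal component. The check therefore sets code Z apart but cannot tell the pairing of X from that of Y. With that limit, the codes were taken as pairing the samples. Code X was on replicate 1 of each group and code Y on standard replicate 3, acute replicate 2 and chronic replicate 2.

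The 10 genes and the lists were chosen with earlier results of these data known. Named were all 10. Of each list, the highest and lowest log2 change among genes averaging at least 5 TPM, against standard oxygen at each time, and any gene called without a block could be named. For Ddit4, Ddit3 and Trib3, the 3 most similar profiles were named. Gene symbols were matched for 34582 of 34866 identifiers. Coordinates are those of GENCODE M21 on GRCm38, and upstream sequences are from RefSeq. Alternatives were other pseudocounts (0.1, 5), filters, no trend, rescaling, all 9 samples in 1 fit, blocks by code or replicate number, and left-out libraries.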

Additional observations from a re-analysis of the deposited data

Results flagged for a closer look

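For 3 genes the effect against standard oxygen differed between 3 hours and 7 days of hypoxia, by the test of chronic against acute hypoxia with the sample code block (limma, adjusted over all genes). Ddit4 was lower at 7 days than at 3 hours by a log2 change of -0.94 (SE 0.205, adjusted p = 0.041), and lower in 3 of 3 codes. Atf3 was lower at 7 days by a log2 change of -0.65 (SE 0.138, adjusted p = 0.0389), also in 3 of 3 codes. Xbp1 was higher at 7 days by a log2 change of 0.54 (SE 0.0694, adjusted p = 0.0141), in 3 of 3 codes. Without a block none of the 3 passed the threshold, at adjusted p = 0.213, 0.0822 and 0.0621. Sesn2 was also lower at 7 days than at 3 hours in 3 of 3 codes, at -0.30 (adjusted p = 0.0812 with the block), and passed the threshold with the block after rescaling (-0.45, adjusted p = 0.0412).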

How the results depend on the processing

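With the 6 samples of each comparison fitted alone and no block, none of the 9 tested genes was called in any comparison. The calls therefore rest on the sample code block or on another set of libraries. Some unblocked fits without code Z, with all 9 samples or with a replicate left out did make calls, as listed here. In acute hypoxia against standard oxygen, 1 was called with the block, 1 with the block and rescaling, 2 with the block and all 9 samples, and 2 (Ddit4 and Sesn2) without the libraries of code Z, while leaving out each replicate in turn gave 0 to 0. In chronic hypoxia against standard oxygen, 5 were called with the block, 4 with the block and all 9 samples, 3 with the block and rescaling, 5 without code Z, and 2 with all 9 samples in 1 fit. Leaving out replicates gave 0 to 3 there, and the 3 were called without standard replicate 2 (Ddit4, Atf3 and Xbp1, adjusted p = 0.0382, 0.0402 and 0.0128, limma). In chronic against acute hypoxia, 3 were called with the block, 3 with the block and all 9 samples, 4 with the block and rescaling, 3 without code Z, and 0 to 0 with a replicate left out. With the replicate number of the title as the block, 0, 0 and 3 were called; these numbers pair acute and chronic samples as the codes do, but for the standard samples same-numbered deviations had a mean r of -0.122 with acute and -0.136 with chronic. Over all genes, acute hypoxia had 3 calls unblocked, 78 with the code block and 319 without code Z, in chronic hypoxia 298, 2039 and 2300, and in chronic against acute hypoxia 77, 1724 and 1788. With a replicate left out and no block, these ranged from 0 to 33, 1 to 522 and 1 to 308, and with the title number as the block they were 0, 1 and 1724. Rescaling with the block changed the split of calls at 7 days against standard oxygen from 1674 higher and 365 lower to 612 and 655, and in chronic against acute hypoxia from 1345 and 379 to 524 and 562.

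In the comparison where its sign turned, none of the genes below was called with the block. At 7 days against standard oxygen, rescaling gave -0.02 for Atf4 and -0.04 for Trib3, with the block and without it. Without code Z, Atf3 was at -0.20 at 3 hours and Ddit3 at 0.05 at 7 days. With a replicate left out at 3 hours, Atf3 ranged from -0.08 to 0.13, Asns from -0.31 to 0.13 and Ppp1r15a from -0.49 to 0.17. At 7 days Ddit3 ranged from -0.27 to 0.09 and Trib3 from -0.07 to 0.27, and in chronic against acute hypoxia Ddit3 ranged from -0.04 to 0.50. The cause was not tested. Depth is unknown, so no counting error could be given, and Chac1 and Trib3 are the most exposed to it.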
